A study of Triticum aestivum with 4 samples.

Results

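The regions described here belong to wheat genes whose annotation names a component of photosynthesis, of cellular respiration or of the machinery that maintains chloroplasts and mitochondria. They were chosen by 16 words or phrases in the gene description, such as photosystem, cytochrome b, ATP synthase, chloroplast, mitochondrial, 30S ribosomal and maturase. The choice gave 83 regions of 71 genes, out of 3119 regions of 2811 genes in the authors' lists, with 14 regions in CpG, 55 in CHG and 14 in CHH (H is any base but G). Only 468 of the 3119 listed regions belong to a gene with a description. The others could not be chosen, so shares of all listed regions come mostly from genes without a description.

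The study asked how ultrasound given to seeds changes DNA methylation in the seedlings. Seeds of the winter wheat cultivar SE15, at 13.6% water, received 30 kHz ultrasound at 70 W for 5 min from 4 cm away, or none, with 100 seeds per group. They germinated at 20 °C in the dark, and seedlings were sampled on day 7. Each group has 2 labelled libraries, with the number of seedlings in each not stated. Levels of library 1 from both groups are given; the labels do not explain the letter on the control column, which was matched to its group by elimination. Every value is thus a single measurement, nothing could be tested between the groups, and "lower" or "higher" is said of the ultrasound library. Levels are written as percent methylated, first for control and then for ultrasound. Methylation levels hold no marker by which the labelled tissue could be checked.

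Plastids and mitochondria keep small genomes of their own, which encode core subunits of the photosystems, of the cytochrome b6-f and NAD(P)H dehydrogenase complexes, of the respiratory chain and of ATP synthase, along with ribosomal proteins and a maturase. The nucleus encodes the remaining proteins of both organelles, among them the light-harvesting proteins and the small subunit of Rubisco. Plant nuclear chromosomes also carry inserted copies of organelle DNA. In seedlings kept in darkness, plastids remain etioplasts and do not assemble the full photosynthetic apparatus.

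All positions below lie on the chromosomes, or the unplaced sequence, of the authors' lists, whose build is not given in the sources used here. Of the 83 regions, 42 regions of 33 genes carried a name of a gene that plastid or mitochondrial genomes encode. Another 14 regions of 11 genes carried a name that does not tell the encoding genome, namely ATP synthase subunit beta, the Clp protease proteolytic subunit and DNA-directed RNA polymerase. The remaining 27 regions, of 27 genes, carried names of nuclear genes for organelle proteins. Reads from near-identical copies, including those from the organelle genomes themselves, cannot be told apart by the levels, and their part in the values was not tested. How many reads stand behind a level is unknown.

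Most regions were less methylated in the ultrasound library, among them every region with both levels and an organelle-encoded name. In CHG, 46 of 50 regions with both levels were lower, where 78.2% of all listed CHG regions were. In CpG, 11 of 12 were lower, against 71.7% of all listed. In CHH, 7 of 11 were lower, against 77.1% of all listed. Over all contexts the count was 64 of 73, a share of 87.7% against 76.8% of all listed regions. Its 95% Clopper-Pearson interval, 77.9 to 94.2, covers the counting of regions only.

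The counts by class of name are given beside 76.8% lower among all listed regions with both levels. All 38 regions with an organelle-encoded name and both levels were lower (100%, interval 90.7 to 100), 31 in CHG and 7 in CpG. Of the 13 regions with a name that does not tell the genome, 12 were lower. Of the 22 regions with nuclear names, 14 were lower (63.6%) and 8 were higher, and the interval of 40.7 to 82.8 includes the share of all listed regions. The classes also differ in context, since 12 of the 27 regions with nuclear names and none with organelle-encoded names are CHH. Regions that share a gene or lie side by side are not independent, and these classes were formed with the values known, so the counts are descriptions.

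Large increases were found at nuclear names. A difference of at least 10 percentage points downwards was found in 26 of 50 CHG regions, where 43.8% of all listed CHG regions passed that size, in 11 of 12 CpG regions (65.2% of all listed) and in 6 of 11 CHH regions (55.4% of all listed). An increase of at least 10 points was found in 2 CHG regions (16.6% of all listed) and 1 CpG region (25.8% of all listed). In CHH it was found in 4 regions (18.0% of all listed). All 7 carried nuclear names, out of 22 regions with such names and both levels, where 18.6% of all listed regions rose by that much. By context they were 2 of 9 nuclear names in CHG, 1 of 3 in CpG and 4 of 10 in CHH. The 4 in CHH lie in a context that holds no organelle-encoded name.

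**Figure D1:**
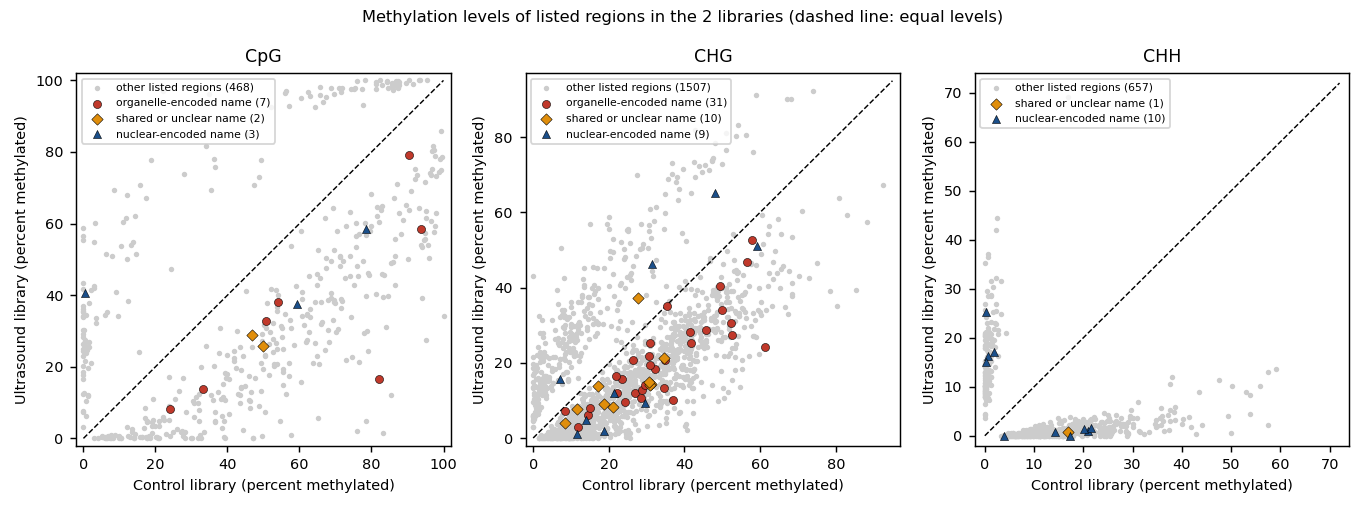
Methylation level in the ultrasound library (y axis, percent) against the control library (x axis, percent) for each listed region with both levels, in CpG, CHG and CHH; grey points are other listed regions, coloured points the genes described here by encoding genome, and the dashed line marks equal levels. All 38 organelle-encoded names lie below the line, inside the cloud of other regions that were lower, and in CHH every one of the 11 coloured points is close to an axis.

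Organelle-encoded names in CHG had medians of 31.0% (control) and 19.5% (ultrasound). The median difference was -13.4 points, against -8.87 over all listed CHG regions. The median ratio of levels, ultrasound over control, was 0.599 (quartiles 0.445 and 0.729), close to 0.570 over all listed CHG regions (0.331 and 0.814). Over the 1218 listed CHG regions that were lower, the median ratio was 0.485 (0.274 and 0.639), from a median control level of 23.9%. Where the control level was at least 10%, all 30 organelle-encoded names in CHG were lower, as were 44 of 47 CHG regions of the whole set and 85.6% of all listed CHG regions. In CpG all 11 regions of the set at that level were lower (80.8% of all listed), and in CHH all 6 (99.7% of all listed). A minimum control level leaves out regions that were low in the control library, so it favours decreases by its construction. Without it the shares lower among all listed regions were 71.7% in CpG, 78.2% in CHG and 77.1% in CHH.

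Photosystem II, the complex that splits water, gave the largest set, with 19 regions of 14 genes. The 18 regions with organelle-encoded names were all lower, against 76.8% of all listed regions, at ratios between 0.202 and 0.991. Cytochrome b559 subunit alpha, a heme-binding subunit of its core, had the largest decrease of all regions described here. A CpG region 1230 bp downstream of that gene (TraesCS6A02G020700; 6A, 9656215 to 9660280) was at 82.1% (control) and 16.6% (ultrasound), a difference of -65.5 points. The CHG region that overlapped the gene (6A, 9649381 to 9654704) was at 61.2% and 24.2%.

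The photosystem II CP47 protein, an inner antenna that binds chlorophyll, showed how much neighbouring regions of a single gene can differ. Both of its CHG regions overlapped the gene (TraesCS3D02G053400) and lay side by side. The first (3D, 21903717 to 21904988) was at 34.6% (control) and 13.2% (ultrasound). The second (3D, 21904990 to 21907371) was at 35.4% and 35.1%, nearly equal. The D2 protein, a reaction centre subunit (TraesCS2D02G021000; 2D, 9788123 to 9790145), was at 24.2% and 9.63% in CHG.

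Small photosystem II subunits occurred at several loci, with control levels that varied widely between loci. Reaction center protein Z was listed with 8 regions of 5 genes, all lower. At TraesCS1D02G180400 the CHG region downstream was at 52.2% (control) and 30.7% (ultrasound), the region over the gene at 26.9% and 11.9%, and the region upstream at 30.7% and 21.7%. The CpG region upstream of that gene was at 53.9% and 38.0%.

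The other 4 genes for protein Z ranged widely in level. A CpG region over TraesCS4D02G155100 was at 90.4% (control) and 79.1% (ultrasound), the highest of the protein Z regions in both. CHG levels were 49.5% and 40.3% downstream of TraesCS1D02G071000, 26.5% and 20.7% at TraesCS5D02G007800 and 22.2% and 11.9% at TraesCS4B02G158900. The differences of these 4 regions lay between -11.3 and -5.73 points.

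Reaction center protein I (psbI) was listed at 4 loci in CHG, of which 3 share a single protein entry in the annotation. The level was 28.6% (control) and 10.52% (ultrasound) on 7D (TraesCS7D02G123900), 34.8% and 20.8% on 6D (TraesCS6D02G079600) and 30.8% and 19.5% on 5D (TraesCS5D02G008000). The second 5D copy (TraesCS5D02G471500) was low in both, at 8.54% and 7.21%. Reaction center protein M (psbM, TraesCS5D02G007700) was at 32.3% and 18.5%. Of photosystem II, the nuclear gene for Psb28, a protein that acts in assembly of the complex, went the other way and is given with the nuclear genes below.

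The complexes next to photosystem II in the electron transport chain were each represented by few regions. Those with both levels were all lower in CHG, where 78.2% of all listed regions were lower. Ycf3, an assembly factor of photosystem I (TraesCS3D02G057600), had 2 regions over the gene, at 28.9% (control) and 12.9% (ultrasound) and at 15.04% and 7.87%. Subunit 6 of the cytochrome b6-f complex, which passes electrons between the photosystems (TraesCS5D02G220500), was at 41.6% and 28.1%, and subunit 5 (petG, on unplaced sequence) at 21.9% and 16.4%. Subunit I of the plastid NAD(P)H dehydrogenase, a complex of cyclic electron flow, had a region 732 bp downstream (TraesCS4A02G141300; 4A, 219340413 to 219343260) at 57.8% and 52.7%, a ratio of 0.912.

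ATP synthase had 12 regions of 10 genes, and 10 of the 11 with both levels were lower, against 76.8% of all listed regions. The epsilon chain, part of the rotating stalk (atpE, TraesCSU02G251400, unplaced), was at 37.0% (control) and 10.2% (ultrasound) in CHG. Subunit c, which forms the membrane rotor (atpH, TraesCS5D02G196700), had an upstream region at 45.7% and 28.8%.

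Subunit alpha, part of the catalytic head and encoded by both organelle genomes, was listed at 4 genes and lower at each. The CpG region over TraesCS2A02G547200 (2A, 755480400 to 755482074) was at 93.8% (control) and 58.6% (ultrasound). The CHG regions were at 52.5% and 27.3% (TraesCS1D02G181000), 31.0% and 25.4% (TraesCS5D02G011000) and 12.0% and 2.90% (TraesCS5D02G458900). The ratios of these CHG regions were 0.520, 0.818 and 0.242, so copies of a single name differed.

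Subunit beta, the catalytic subunit, included the single increase outside the nuclear names. Within TraesCS2D02G284400, a CHG region (2D, 359629108 to 359630781) was at 27.7% (control) and 37.2% (ultrasound), 9.49 points higher. The adjoining CHG region (2D, 359630782 to 359632804) was at 17.1% and 13.7%, and a CpG region inside the latter at 46.9% and 28.9%. Copies on 2D (TraesCS2D02G584400) and 3B (TraesCS3B02G186000) were low, at 11.6% and 7.77% and at 8.47% and 3.88%.

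Genes of respiratory complexes III and IV were lower in all 3 regions, which are CHG, where 78.2% of all listed regions were lower. Cytochrome c oxidase subunit 1, the catalytic core of complex IV and a mitochondrial gene, had a CHG region downstream of TraesCS7A02G098500 at 41.8% (control) and 25.2% (ultrasound). The copy on 3A (TraesCS3A02G080400) had an upstream region at 56.5% and 46.8%. The Rieske subunit of complex III, an iron-sulphur protein encoded in the nucleus (TraesCS6B02G229200; 6B, 366606071 to 366606858), was at 29.5% and 9.32%.

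Genes of organelle gene expression and protein turnover were lower in every region with both levels, against 76.8% of all listed regions. Ribosomal protein S14 of the small subunit (rps14, TraesCS2B02G487300) had overlapping upstream regions, at 24.2% (control) and 8.26% (ultrasound) in CpG and at 14.4% and 6.21% in CHG. Ribosomal protein S4 (rps4, TraesCS3D02G057700) had a downstream CpG region at 33.3% and 13.7%. Maturase K, which helps to splice plastid introns, was at 29.7% and 14.2% on 6D (TraesCS6D02G079800) and at 23.6% and 15.7% on 1D (TraesCS1D02G071300). Nuclear genes for ribosomal proteins were lower as well, with L17 of the plastid large subunit (TraesCS5B02G481100) at 78.6% and 58.4% in CpG and S9 of mitochondria (TraesCS2D02G133900) at 17.4% and a listed 0% in CHH.

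The Clp protease proteolytic subunit, the peptidase of the main stromal protease, was lower throughout. Its 7 regions of 6 genes were all lower, against 76.8% of all listed regions, and the ratios lay between 0.394 and 0.614. At TraesCS1A02G111400 the CpG region downstream was at 49.9% (control) and 25.8% (ultrasound), and the CHG region over the gene at 31.2% and 14.5%. The other 5 genes had CHG control levels of 18.7% to 34.7% and ultrasound levels of 8.33% to 21.3%. RF68, a hypothetical plastid reading frame (TraesCS1A02G337500), was at 50.6% and 32.9% in CpG and at 50.02% and 33.9% in CHG. A gene for a DNA-directed RNA polymerase (TraesCS5D02G171600) had a CHH region 80 bp downstream at 16.8% and 0.832%.

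**Figure D2:**
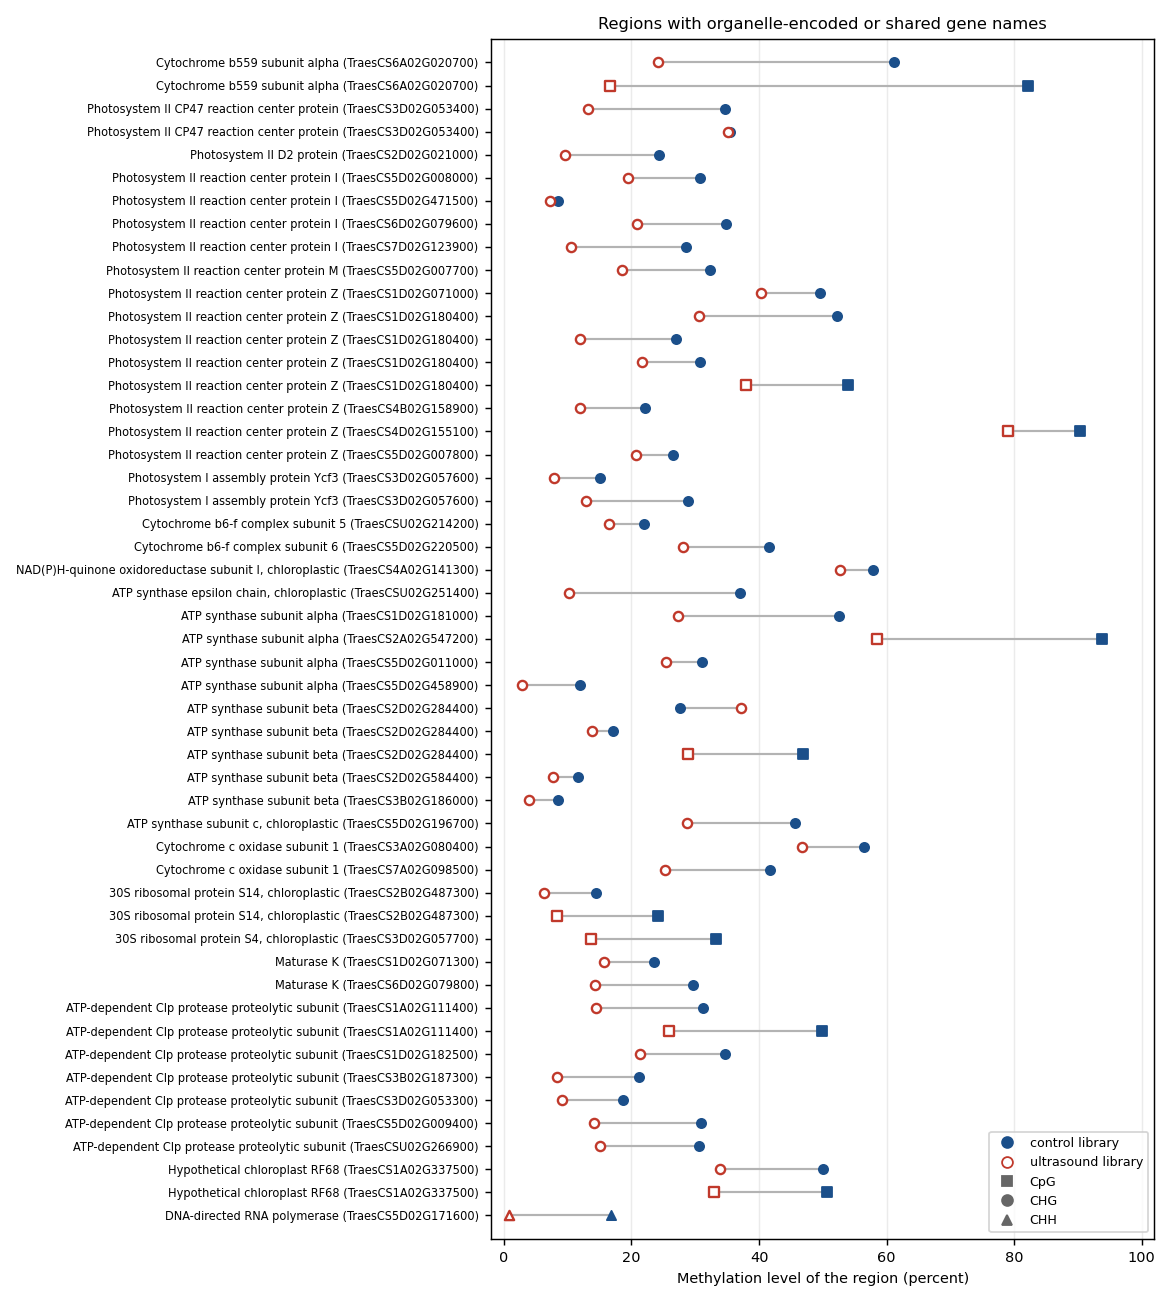
Methylation level (x axis, percent) of the 51 regions with an organelle-encoded name, or a name that does not tell the genome, and both levels, with a row per region; filled blue symbols are the control library, open red symbols the ultrasound library, squares CpG, circles CHG and triangles CHH. The ultrasound symbol lies to the left in 50 rows, and the exception is an ATP synthase subunit beta region at 27.7% and 37.2%.

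Nuclear genes for light capture and carbon fixation included increases from almost unmethylated CHH regions. Both chlorophyll a-b binding protein genes with 2 levels, which encode light-harvesting proteins, were higher. TraesCS5B02G462800 was at 0.305% (control) and 25.3% (ultrasound) in CHH, and TraesCS2D02G209900 (2D, 165538354 to 165539954) at 31.3% and 46.2% in CHG. Psb28 (TraesCS3B02G392800) had a CHH region 688 bp downstream (3B, 618436543 to 618436892) at 1.82% and 17.1%.

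Genes with the same description went in opposite directions in CHH. The Rubisco small chain, the nuclear subunit of the enzyme that fixes carbon dioxide, had an upstream region on 2A (TraesCS2A02G066900; 2A, 30069811 to 30070090) at 0.75% (control) and 16.3% (ultrasound). The region upstream of its 5D gene (TraesCS5D02G169600; 5D, 266087655 to 266087967) was at 14.3% and 0.788%. SUPPRESSOR OF QUENCHING 1, known in Arabidopsis for limiting a form of energy dissipation in the antenna, was lower on 4A (TraesCS4A02G123300; 4A, 154499697 to 154499992), at 20.2% and 1.36%. It was higher on 4B (TraesCS4B02G181000; 4B, 396718164 to 396718486), at 0.202% and 15.1%. The 4A region overlapped its gene and the 4B region lay 445 bp downstream. The Rubisco regions lay 1468 bp upstream on 2A and 854 bp upstream on 5D, so neither pair compares the same position.

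Every CHH region described here with both levels was below 2% in the library where it was lower. This applied to 11 of 11 regions, and to 83.7% of all 668 listed CHH regions. Tocopherol cyclase, of vitamin E synthesis (TraesCS1B02G236600), was at 20.9% (control) and 0.903% (ultrasound), and a RAP domain protein gene (TraesCS3B02G102900) at 21.6% and 1.53%. Plastid-lipid-associated protein 12 (TraesCS2B02G455900) was at 3.89% and a listed 0%.

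The other nuclear genes were mixed. In CHG, 5 were lower. A RETICULATA-RELATED 4 gene (TraesCS1B02G254100) was at 18.7% (control) and 1.799% (ultrasound), and a mitochondrial CPN60-like chaperonin gene (TraesCS1A02G361400) at 11.6% and 1.11%. A starch synthase gene (TraesCS2A02G373600) was at 14.02% and 4.84%, a mitochondrial intermediate peptidase gene (TraesCS7A02G446300) at 21.5% and 12.0%, and a ribosome-recycling factor gene (TraesCS2D02G205900) at 59.2% and 51.03%.

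Another 2 nuclear genes were higher in CHG. An ABC transporter I family gene (TraesCS3B02G432400; 3B, 671672331 to 671673320) was at 48.2% (control) and 65.2% (ultrasound). The gene for the electron transfer flavoprotein-ubiquinone oxidoreductase, which feeds electrons into the respiratory chain (TraesCS1A02G176900), was at 7.15% and 15.6%. In CpG, a region downstream of a formate dehydrogenase gene (TraesCS4D02G007200; 4D, 3613611 to 3624513) was at 0.323% and 40.5%, the largest increase described here, over an unusually long 10903 bp. A phosphatidylserine decarboxylase gene (TraesCS4B02G373200), of membrane lipid synthesis, was at 59.4% and 37.6%.

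**Figure D3:**
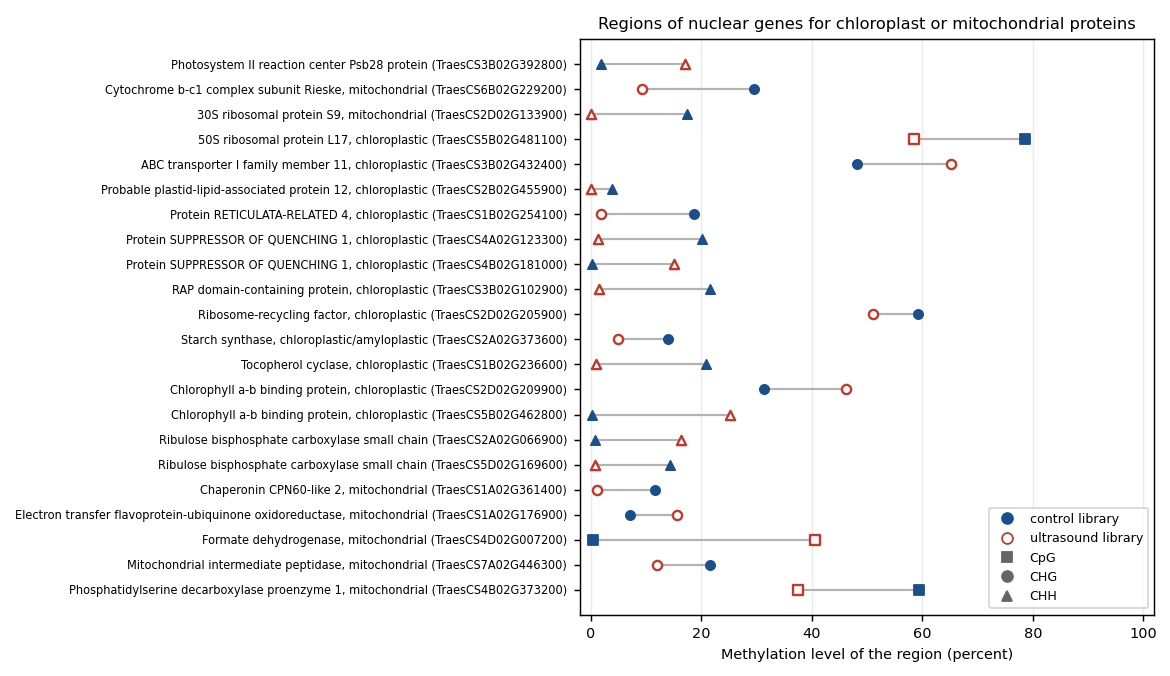
Methylation level (x axis, percent) of the 22 regions of nuclear genes for chloroplast or mitochondrial proteins with both levels, with a row per region; filled blue symbols are the control library, open red symbols the ultrasound library, squares CpG, circles CHG and triangles CHH. The ultrasound symbol lies to the right in 8 rows, with the formate dehydrogenase region the widest at 0.323% and 40.5%.

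The classes also differed in what the choice of words did not use. CHH regions, absent among organelle-encoded names, make up 23.7% of all listed regions. Regions with organelle-encoded names were long, with a median of 2146.5 bp in CHG against 1364 bp for all listed CHG regions and 1107 bp for nuclear names. Of the 42 regions with these names, 25 lay on chromosomes of the D subgenome, or 59.5%, where 33.1% of all listed regions lie. Another 8 were on the A subgenome, 4 on B and 5 on unplaced sequence. None of these differences was tested.

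Some regions had listed regions of other genes close by. A listed region of another gene lay within 10 kb of 18 of the 42 with organelle-encoded names, or 42.9%, of 4 of the 14 with unclear names and of none of the 27 with nuclear names. Over all 3119 listed regions the count was 311, or 9.97%. Within 10 kb of organelle-encoded names, the 26 listed regions of genes outside the set were all lower, at a median ratio of 0.597. For unclear names there were 7 such regions, all lower, at a median ratio of 0.706. For comparison, 76.8% of all listed regions were lower. Genes outside the set include genes without a description, so they are not known to differ in function from the set. Within chains of at least 4 listed regions with gaps up to 10 kb that held a region of the set, 62 of 62 regions were lower, 46 of them of genes outside the set. Apart from a PsbN region given below, these 46 are of genes without a description, whose function is not known here. Chains of at least 4 listed regions without a region of the set were much alike, with 165 of 167 regions lower, or 98.8%, against 76.8% of all listed regions. With a minimum of 3 regions, 73 of 74 were lower in chains with a region of the set, and the exception was the ATP synthase subunit beta region on 2D that was higher. Without a region of the set the count was then 237 of 243. With a minimum of 2 regions, 81 of 82 were lower in chains with a region of the set and 492 of 558, or 88.2%, in chains without.

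The longest chain spanned 48.3 kb of chromosome 5D (5D, 6162515 to 6210854). Its 13 regions included psbM, protein Z, psbI and a Clp protease subunit, with control levels of 12.2% to 64.9% and ultrasound levels of 8.47% to 45.8%. A region of a gene described as PsbN, another photosystem II name not among the words and picked here after its value was seen (TraesCS5D02G009300), was at 12.2% (control) and 8.47% (ultrasound). The median ratio along this chain was 0.694.

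Chains differed in their ratio. A second chain on 5D (5D, 6232951 to 6266746), with ATP synthase subunit alpha, had 10 regions and a median ratio of 0.596. On 1D (1D, 254450103 to 254496179), 8 regions with ATP synthase subunit alpha and a Clp protease subunit had a median ratio of 0.569, and the ratios lay between 0.512 and 0.614. On 3B (3B, 201511626 to 201543809), 11 regions starting at a Clp protease subunit had a median ratio of 0.365. Around rps14 on 2B (2B, 683729637 to 683736416) the median ratio was 0.430 over 5 regions. Ratios within a chain come from the same pair of libraries and are not independent of each other.

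**Figure D4:**
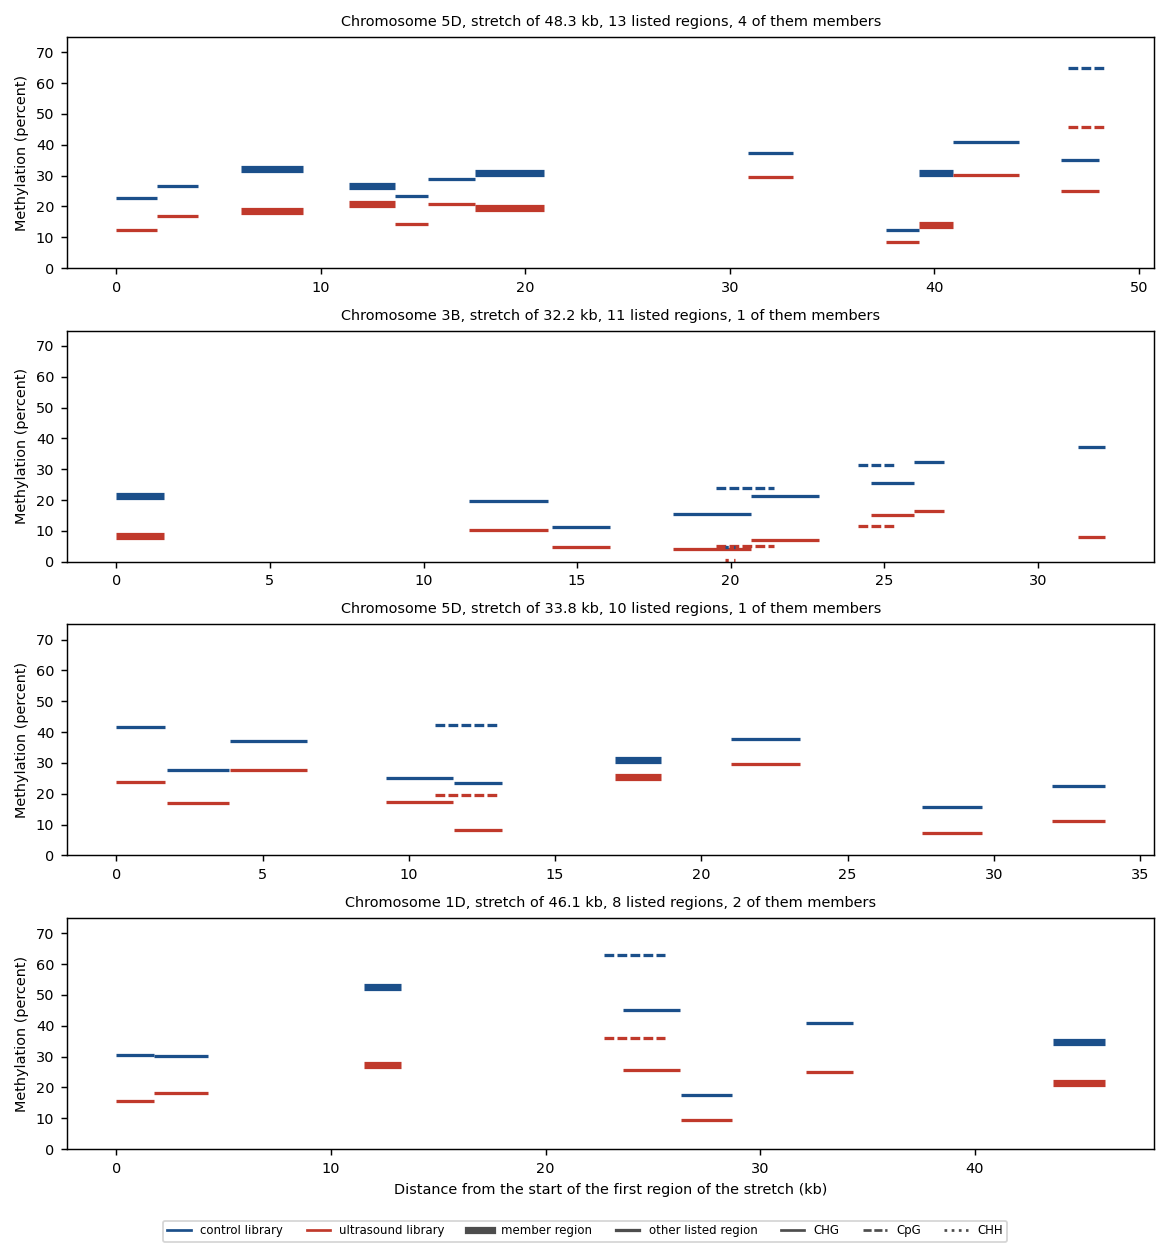
Methylation level (y axis, percent) along the 4 chains with the most listed regions that hold a gene of the set, by distance from the start of the first region (x axis, kb); blue is the control library and red the ultrasound library, thick bars are regions of the set, thin bars other listed regions, solid CHG, dashed CpG and dotted CHH. In each of the 42 regions shown the ultrasound bar lies below the control bar.

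Genes listed in more than 1 context were mostly lower in both. There were 7 such genes, and 5 of the 6 with both levels throughout were lower in every region, the exception being ATP synthase subunit beta on 2D. Over all listed regions 76.8% were lower, and the same count over all listed genes was not made. Where a CpG and a CHG region of the same gene overlapped, the ratios were 0.517 and 0.465 at the Clp protease subunit on 1A, 0.650 and 0.678 at RF68, 0.705 and 0.708 at protein Z on 1D, 0.342 and 0.430 at rps14 and 0.616 and 0.806 at ATP synthase subunit beta. These compare the same libraries at overlapping places, with only 410 bp shared at the Clp protease subunit on 1A.

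Listed genes with related functions but none of the chosen words were few. They were found by 15 further words, such as plastocyanin, pentatricopeptide, fibrillin and carotene, which matched 9 regions. Of the 8 with both levels, 4 were lower, and the interval of 15.7 to 84.3% includes the 76.8% of all listed regions. Pentatricopeptide repeat genes, which act on organelle transcripts, had 4 regions, 2 lower and 2 higher. In CHG, TraesCS2A02G289100 was at 44.9% (control) and 32.5% (ultrasound), and TraesCS2D02G294400 at 8.45% and 20.7%. Another in CHG (TraesCS3D02G111500) was at 8.74% and 2.56%, and the one in CHH (TraesCS6B02G068600) at 0.625% and 36.5%. The 2 CpG regions went in opposite directions. A PAP fibrillin domain gene (TraesCS3B02G020500; 3B, 8764656 to 8783732) was at 22.2% and 97.1%, the largest difference among the related genes. That region is longer still than the formate dehydrogenase region of 10903 bp. A beta-carotene hydroxylase gene of xanthophyll synthesis (TraesCS2D02G393900) was at 30.7% and 6.05%. Of the genes for cytosolic ribosomal proteins, 40S S4 (TraesCS1B02G120600) was lower and 40S S12 (TraesCS5B02G425100) higher.

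A level was missing for 10 of the 83 regions, and these enter no count of directions. It was missing in the control library for 5, in the ultrasound library for 3 and in both for 2. Both levels were missing for NADH-ubiquinone oxidoreductase chain 3, a subunit of mitochondrial complex I, and for outer envelope pore protein 16-1. Subunit K of the plastid NAD(P)H dehydrogenase was at 54.6% in the control library alone, and high chlorophyll fluorescent 107 at 37.3% alone. Ribosomal protein S15 had 65.3% for the control library in CHG and 41.9% for the ultrasound library in CpG, which cannot be compared. The ultrasound library alone was given for lipoyl synthase (43.1%), a dnaJ C76 chaperone (5.06%), an ATP synthase subunit beta on 3A (0.292%) and a chlorophyll a-b binding protein on 7D (0.373%).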

How the data were processed

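The deposited lists give, per region, a methylation level in percent for each library, per the file headers; the authors' list names speak of a chi-square test and edgeR. Tools listed in the submitters' processing notes, with no role, are Bismark 0.23.1, edgeR, FastQC 0.11.9 and Trim Galore 0.6.7. How regions were defined and selected, at what coverage and on which build is not stated in those sources. The lists hold selected regions, so counts do not describe the genome. Libraries were made with an enzymatic conversion kit, per the labels' protocols, while their titles read WGBS. The labels speak of 3 biological samples per group.

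The column K1 was taken as control library 1 because the lists compare it with US1 and the labels name 2 groups; the letter is not explained, and a wrong assignment would change the control side of every value. Library 2 of either group was not analysed here.

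Differences are ultrasound minus control. Shares carry 95% Clopper-Pearson intervals over regions (Python 3.11.15, SciPy 1.17.1, pandas 2.3.3); with 1 library per group no p-value is given. The genes, words, classes and chains were chosen with earlier results of these data known. Named were, per role, the 2 largest differences, genes in more than 1 context and increases of at least 10 points; other regions with levels were added for completeness. None of the 71 gene identifiers matched the reference table, which was not used. The summaries were tested on simulated data. Alternatives were other minimum differences, units, positions and classes.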

Additional observations from a re-analysis of the deposited data

How the results depend on the processing

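Of 122 values recomputed under the alternatives, 104 stayed within the interval of the value reported, 18 moved outside it and none changed direction. Several alternatives could not move a value because they left the regions unchanged. Counting each gene once or merging within 10 kb, for example, kept the same 12 CpG and 11 CHH regions. The CHH intervals were also wide, from 0 to 75.1 for the median ratio, so the tally is no measure of robustness. The share lower became 100% for organelle-encoded names (all contexts, CpG and CHG), for CpG regions that overlap their gene, are at most 3000 bp long or have a control level of at least 10%, for CHH at that control level and for CHG differences of at least 25 points. At a control level of at least 10% it was 95.3% over all contexts. For nuclear or unclear names it was 74.3% over all contexts and 78.9% in CHG. With a minimum difference of 10 points the median difference was -16.0 points over all contexts and -15.8 in CHG, and with 25 points -31.0 over all contexts, -35.2 in CpG and -26.8 in CHG, where the median ratios were 0.457 over all contexts and 0.395 in CHG. A minimum difference selects larger values by its construction, and a minimum control level favours decreases by its construction.

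No paired analysis was possible because levels of 1 library per group were analysed, and leaving out a library was not possible for the same reason. No CHH value exists for organelle-encoded names or for differences of at least 25 points. The intervals treat regions as independent, although neighbours are not. Depth is unknown, so the precision of a single level cannot be given, and a level listed at 0 has no upper limit here.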
